A study of Mus musculus with 8 samples.

Results

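Peritoneal macrophages of Fra-1 and Fra-2 knockout mice and of their controls were read for 9 genes of osteoclast fusion and bone resorption. These were Acp5, Ctsk, Atp6v0d2, Dcstamp, Ocstamp, Oscar, Nfatc1, Tnfrsf11a and Calcr. They were picked by name, with earlier results of these data known. Each noncontrol array probe whose transcript accession belongs to one of them was kept. This gave 12 of 55681 noncontrol probes, for 9 of the 21154 genes that could be named, each probe printed as a single spot per array. Of the 12 probes, 11 (8 genes) entered the statistical fit and 10 were well above background on all 8 arrays. Calcr was below the detection rule and is described by its values only.

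Osteoclasts are giant cells that form when macrophage precursors fuse, and they dissolve bone by pumping acid and secreting enzymes into a sealed space beneath them. The cytokine RANKL binds its receptor RANK, the product of Tnfrsf11a, and the signal, joined by co-stimulation through receptors such as OSCAR, induces the transcription factor NFATc1. NFATc1 then drives fusion proteins such as DC-STAMP and OC-STAMP and resorption proteins such as cathepsin K, and AP-1 proteins of the Fos and Jun families, to which Fra-1 and Fra-2 belong, act in the same program. Several of these genes are also expressed by macrophages that are not osteoclasts.

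The data are 8 Agilent 1-colour arrays, 2 for each of 4 groups. Fra-1 knockout mice had the genotype Fra-1lox/lox MxCre-/+ and their controls, labelled wild-type, were Fra-1lox/lox. Fra-2 knockout mice had the genotype Fra-2lox/lox LysMCre-/+ and their controls, also labelled wild-type, were Fra-2lox/lox, so both control groups carried floxed alleles. All mice were on a 129/C57Bl6 background, male or female, 8 weeks old, and the controls were littermates. Mx Cre is driven by an interferon-inducible promoter that is active in blood cells and other tissues, and how it was induced is not given in the sources used here. LysM Cre is driven by a promoter active in myeloid cells. Cells were washed from the peritoneal cavity and plated overnight, and RNA came from those that adhered. All 4 samples of the Fra-1 line, and none of the Fra-2 line, are described as elicited with thioglycollate, an irritant that draws inflammatory macrophages into the cavity. Line, elicitation and preparation therefore go together and cannot be told apart in any comparison of the lines. The controls carried no Cre, so deletion and Cre go together in each comparison of knockout and control. Between the knockouts the Cre differs as well. The design text counts mice in each group, but the labels do not say whether an array holds 1 mouse, and p-values measure the spread between arrays.

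Signal was well above background for 47.7% to 57.6% of noncontrol spots per array. The Fosl1 probe, which reads the Fra-1 gene, was not well above background on either Fra-1 knockout array (normalized log2 signal −4.78 and −4.18) and lay at −2.73 and −1.97 on the control arrays. The measured log2 difference was −2.13 with an adjusted p of 0.369, and its size is limited by background on the knockout arrays. The Fosl2 probe A_55_P1995195 went against its label: it read 6.43 and 7.14 on the arrays labelled Fra-2 knockout, against 5.51 and 5.57 on their controls. The other Fosl2 probe was lower there by 1.27 on the log2 scale (adjusted p 0.300). The files do not say which part of either gene the probes read relative to the deleted part, so below "Fra-2 knockout" means the arrays so labelled. Macrophage marker genes were bright on all arrays, with 6 or 7 of 7 well above background. The count was 6 on Fra-1 knockout 2 and Fra-2 control 1, where Csf1r had no value. Of 5 osteoblast markers 0 to 3 were well above background on an array, with Alpl above it on 6 of 8 arrays, Runx2 on 5 and Sp7 on none. In such bulk RNA fewer cells of a type and less RNA per cell cannot be told apart.

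The values below are normalized log2 signals, where 0 is the array's 75th percentile of probe signal, 1 unit is a doubling and a negative value is dimmer than that percentile. Probes differ in brightness for reasons of design, so levels are compared between groups for 1 probe and never between probes. Array values are given for replicate 1 and then replicate 2 of a group.

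The start regions of the resorption genes Ctsk and Acp5, and of the receptor gene Oscar, are shown because the first 2 genes had different levels in the lines while Oscar did not. Each is the RefSeq window of 300 bases of build GRCm38.p6 that runs from 250 bases before the annotated start to 50 after it, 5′ to 3′ on the gene's strand, with the start at base 251. The windows are Ctsk at chr3:95498960-95499259 on the plus strand, Acp5 at chr9:22130549-22130848 on the minus strand and Oscar at chr7:3616108-3616407 on the minus strand. Capitals mark matches, on either strand, to motifs of transcription factors known from osteoclasts: GGAAA for NFAT, TCANGTG for MITF and GAGGAA for PU.1.
Ctsk: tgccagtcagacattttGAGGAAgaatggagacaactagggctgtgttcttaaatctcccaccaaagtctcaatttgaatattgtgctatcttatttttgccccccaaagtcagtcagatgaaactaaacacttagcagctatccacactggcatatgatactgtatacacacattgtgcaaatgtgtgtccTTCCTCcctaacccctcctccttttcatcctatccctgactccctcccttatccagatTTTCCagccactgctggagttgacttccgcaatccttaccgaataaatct
Acp5: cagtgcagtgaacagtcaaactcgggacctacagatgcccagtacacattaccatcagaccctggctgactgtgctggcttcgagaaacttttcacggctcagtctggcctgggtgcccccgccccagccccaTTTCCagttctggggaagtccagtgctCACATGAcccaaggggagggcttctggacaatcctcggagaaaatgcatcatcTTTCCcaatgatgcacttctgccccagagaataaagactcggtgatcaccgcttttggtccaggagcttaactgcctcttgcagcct
Oscar: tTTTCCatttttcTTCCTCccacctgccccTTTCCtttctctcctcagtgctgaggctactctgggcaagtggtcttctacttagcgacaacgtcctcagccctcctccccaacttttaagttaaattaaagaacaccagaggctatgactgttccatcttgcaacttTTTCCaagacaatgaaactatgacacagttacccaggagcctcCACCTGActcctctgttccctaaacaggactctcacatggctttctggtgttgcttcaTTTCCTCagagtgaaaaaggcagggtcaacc

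In the Ctsk window the GGAAA match, on the opposite strand, began at the start site itself (base 251), and GAGGAA matches lay at bases 18 to 23 and 193 to 198. In the Acp5 window shown, GGAAA matches lay at bases 134 to 138 and 214 to 218, and TCANGTG at bases 161 to 167. Of the Acp5 windows this one held the most matches. Each of the others held 1 GGAAA match and no TCANGTG match. The Oscar window held 4 GGAAA matches, 2 GAGGAA matches and 1 TCANGTG match. Its GGAAA match at bases 270 to 274 and its GAGGAA match at bases 271 to 276 overlap.

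RefSeq windows were given for 5 of the 9 genes, 8 windows in all: Acp5 with 3, Calcr with 2, and Ctsk, Oscar and Tnfrsf11a with 1 each. The AP-1 motif TGANTCA, the letters Fos and Jun dimers bind, was in 0 of the 8 windows and in 7.808% of all 32851 promoter windows. The related TGACGTCA was also in 0 of 8, against 1.79% of all windows. GGAAA was in 6 of 8 (61.34% of all), TCANGTG in 3 (14.31%), GAGGAA in 2 (28.28%) and the NF-kB motif in 1 (20.73%). A match describes letters only, and no match says only that the letters are not in this window.

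Acp5 encodes tartrate-resistant acid phosphatase, the enzyme by which osteoclasts are stained. Its probe A_55_P2037608 read 8.11 and 8.00 in Fra-1 knockout cells, against 8.36 and 8.54 in Fra-1 controls, and 4.91 and 5.34 in Fra-2 knockout cells, against 6.28 and 6.55 in Fra-2 controls. Probe A_55_P1997766 read 7.79 and 7.82 in Fra-1 knockout cells, against 7.92 and 8.02 in Fra-1 controls, and 4.56 and 4.89 in Fra-2 knockout cells, against 5.75 and 6.11 in Fra-2 controls. On both probes the order, from high to low, was Fra-1 control, Fra-1 knockout, Fra-2 control and Fra-2 knockout, with no overlap between neighbours. The gap between the Fra-1 groups was the narrow one.

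Ctsk encodes cathepsin K, the protease that digests bone collagen, which fibroblasts also make. It read 7.81 and 7.57 in Fra-1 knockout cells, against 8.31 and 7.89 in Fra-1 controls. In the Fra-2 line it read −0.32 and −0.54 in knockout cells, against 0.04 and 0.89 in controls. All 4 Fra-1 line arrays were high and all 4 Fra-2 line arrays low, and within each line the knockout arrays lay below the controls without overlap.

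Atp6v0d2 encodes a subunit of the vacuolar proton pump that is enriched in osteoclasts and, in mice, is needed for efficient precursor fusion. Probe A_66_P124179 read 6.81 and 6.72 in Fra-1 knockout cells, against 6.99 and 6.60 in Fra-1 controls, and −1.9998 and −2.52 in Fra-2 knockout cells, against −0.65 and −0.54 in Fra-2 controls. Probe A_52_P71686 read 4.19 and 4.28 in Fra-1 knockout cells, against 4.75 and 4.42 in Fra-1 controls, and −4.44 and −5.23 in Fra-2 knockout cells, against −3.20 and −3.17 in Fra-2 controls. The lines were far apart on both probes and the Fra-2 groups did not overlap. Fra-1 knockout and control arrays overlapped on A_66_P124179 and not on A_52_P71686, and on the second probe neither Fra-2 knockout array was well above background.

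Dcstamp encodes DC-STAMP, a membrane protein of osteoclast and giant-cell fusion that is also made by dendritic cells. It read 2.07 and 2.22 in Fra-1 knockout cells, against 1.44 and 1.91 in Fra-1 controls, and 1.43 and 1.88 in Fra-2 knockout cells, against 2.86 and 3.35 in Fra-2 controls. The Fra-2 control arrays lay above the other 3 groups, and the Fra-1 knockout arrays came next without overlapping any group. Fra-1 control and Fra-2 knockout arrays overlapped at the low end.

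Ocstamp encodes OC-STAMP, a related fusion protein induced late by RANKL. It read −2.24 and −2.26 in Fra-1 knockout cells, against −2.73 and −2.15 in Fra-1 controls, and −0.81 and −0.33 in Fra-2 knockout cells, against 0.29 and 1.04 in Fra-2 controls. The Fra-2 line was high and the Fra-1 line low, the reverse of the resorption genes. Fra-2 knockout and control arrays did not overlap, while Fra-1 knockout and control arrays did.

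Among the receptors, Tnfrsf11a (RANK) read 3.48 and 3.36 in Fra-1 knockout cells, against 3.42 and 3.26 in Fra-1 controls. It read 2.77 and 1.996 in Fra-2 knockout cells, against 2.99 and 2.80 in Fra-2 controls. The replicate 2 array of the Fra-2 knockout was the low one, and its partner lay just under the lower Fra-2 control. Oscar, the collagen-binding co-stimulatory receptor, spanned only 0.31 log2 units over the 8 arrays, from −2.20 in a Fra-1 control to −1.89, and every pair of groups next to each other in the order of means overlapped. The Calcr probe, for the calcitonin receptor of mature osteoclasts, read −3.49 and −6.47 in Fra-1 knockout cells, against −6.65 and −7.08 in Fra-1 controls, and −3.69 and −4.63 in Fra-2 knockout cells, against −4.01 and −4.50 in Fra-2 controls. It was well above background on 2 arrays, Fra-1 knockout 1 and Fra-2 control 1, and no group had it on both arrays.

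Nfatc1, the transcription factor at the centre of osteoclast differentiation, was read by probes for different transcript accessions. Probe A_51_P517870 read 2.30 and 2.39 in Fra-1 knockout cells, against 2.70 and 2.33 in Fra-1 controls, and 3.36 and 2.94 in Fra-2 knockout cells, against 3.10 and 2.73 in Fra-2 controls. Probe A_51_P220135 read 0.26 and 0.50 in Fra-1 knockout cells, against 0.37 and 0.26 in Fra-1 controls, and 1.39 and 1.12 in Fra-2 knockout cells, against 1.27 and 1.12 in Fra-2 controls. Knockout and control arrays overlapped in both lines on both probes, and the 4 arrays of the Fra-2 line lay above the 4 of the Fra-1 line. Nfatc1 thus followed the same side as Ocstamp and the opposite side to Ctsk and Atp6v0d2.

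**Figure D1:**
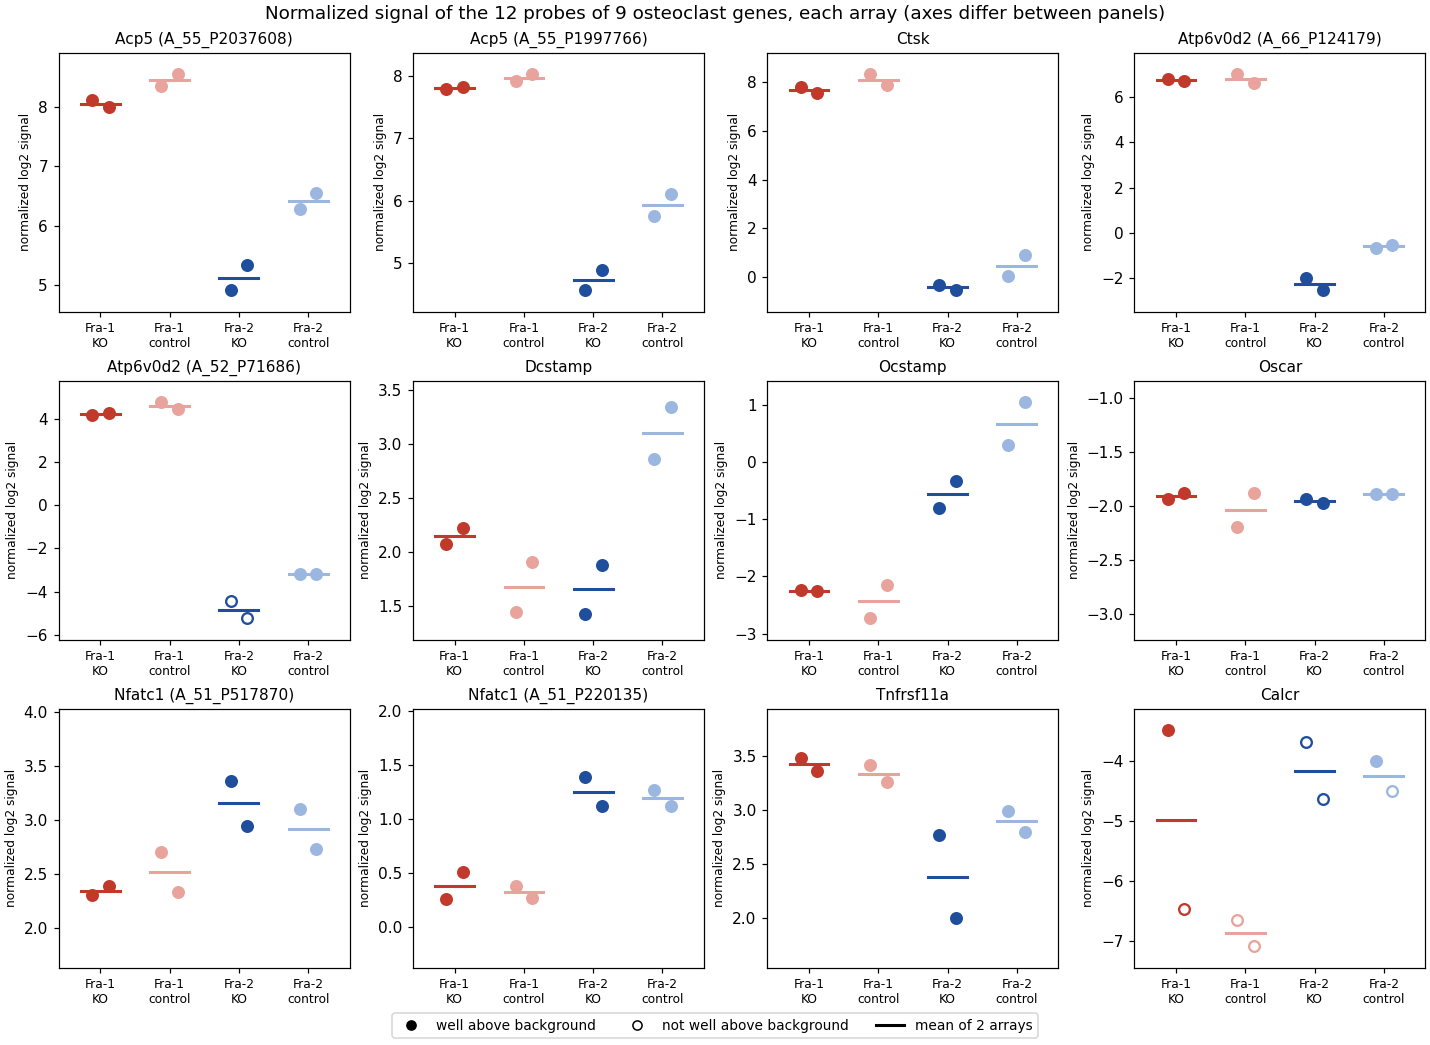
Normalized log2 signal of each of the 12 probes (vertical axes, which differ between panels) on the 8 arrays, by group; points are arrays, lines are means of 2 arrays and open points are not well above background. Ctsk and Atp6v0d2 separate the lines by 7.38 to 7.77 log2 units in controls, and Ocstamp and Nfatc1 lie on the opposite side.

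The first comparison set the arrays labelled Fra-2 knockout, from mice with LysM Cre, against their controls without Cre. The effects of Cre and of the deletion cannot be told apart in it. Acp5, Atp6v0d2, Dcstamp, Ocstamp and Ctsk were all lower on both Fra-2 knockout arrays than on both control arrays, by 0.90 to 1.67 on the log2 scale. None passed the threshold used throughout, an adjusted p under 0.05 in limma over all probes of the fit. Of the 11 probes in the fit 0 were called, where 0.00321% of 31152 probes were, a single probe. At an unadjusted p under 0.05, 7 of 11 probes (5 genes) were lower in knockout cells, against 5.76% of all probes. On 9 of 11 probes (7 genes) both knockout arrays lay below both control arrays, against 20.0% of all probes. The median over the 12 probes was −1.05, and −0.02 over all probes tested.

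Acp5 was lower in Fra-2 knockout cells by 1.29 on A_55_P2037608 (SE 0.190, 95% interval −1.75 to −0.83, adjusted p 0.138), which is 2.44-fold. Its other probe gave −1.20 with an adjusted p of 0.138, so the probes of this gene differed by 0.09. Within slide 1 the difference on A_55_P2037608 was −1.37 and within slide 2 it was −1.21. The Acp5 difference was thus of like size on both slides.

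Atp6v0d2 had the most negative difference of the 11 probes in this fit, which did not hold with another background correction. On A_66_P124179 it was −1.67 (SE 0.220, 95% interval −2.21 to −1.13, adjusted p 0.111), 3.18-fold lower in Fra-2 knockout cells, with −1.35 within slide 1 and −1.99 within slide 2. On A_52_P71686 the measured means were −4.83 in knockout cells and −3.18 in controls (adjusted p 0.153 in limma), and the knockout arrays were not above background there. With the lowest signal well above background on each array as a floor, the signal was 1.99-fold lower. A common floor for all arrays gave 1.59-fold, so 1.99 is not a lower limit. With normexp background correction the differences were −0.99 on A_66_P124179 and −0.36 on A_52_P71686, smaller in size than the −1.497 of Dcstamp under that setting.

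The fusion genes were lower in Fra-2 knockout cells by amounts near those of Acp5. Dcstamp was lower in Fra-2 knockout cells by 1.45 (SE 0.261, 95% interval −2.09 to −0.81, adjusted p 0.191), with −1.43 within slide 1 and −1.46 within slide 2. Ocstamp was lower by 1.24 (SE 0.324, 95% interval −2.03 to −0.44, adjusted p 0.335), with −1.10 within slide 1 and −1.37 within slide 2. The knockout to control gap of both genes was present on each slide.

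Ctsk depended more on single arrays. Its difference was −0.90 (SE 0.309, 95% interval −1.65 to −0.14, adjusted p 0.496), but −0.36 within slide 1 and −1.43 within slide 2, and leaving out 1 array moved it between −0.47 (without Fra-2 control replicate 2) and −1.32 (without Fra-2 control replicate 1). Tnfrsf11a gave −0.51 (95% interval −1.15 to 0.12, adjusted p 0.662), with −0.22 within slide 1 and −0.80 within slide 2, and leaving out 1 array moved it between −0.13 and −0.90, the first without Fra-2 knockout replicate 2.

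The regulator and the co-receptor did not share these values. Nfatc1 gave 0.24 (95% interval −0.30 to 0.78, adjusted p 0.876) on A_51_P517870 and 0.06 (95% interval −0.33 to 0.45) on A_51_P220135. Oscar gave −0.07 (95% interval −0.41 to 0.28, adjusted p 0.972). The Fra-2 knockout arrays of Oscar lay below their controls, but by a fraction of a log2 unit.

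The call depended on how the spread of a probe was estimated. With a prior spread that follows the signal level, limma gave an adjusted p of 0.0369 for Atp6v0d2 A_66_P124179, 0.0441 for Acp5 A_55_P2037608 and 0.0447 for Acp5 A_55_P1997766, so that 3 of 11 probes were called, among 77 probes in all. With slide as a block 0 of the 11 were called.

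Marker lists of other cells were read beside these values. The summed signal of 6 dendritic cell markers, relative to the 75th percentile, was 5.97 to 7.37 on Fra-2 knockout arrays and 5.89 to 13.3 on control arrays, with Xcr1 not well above background on any array. Markers of monocyte-derived or small peritoneal macrophages summed to 71.9 to 72.2 on Fra-2 knockout arrays and 84.0 to 135 on control arrays, lower in the knockout without overlap. Within that list Retnla read 3.41 and 3.12 in knockout cells, against 6.08 and 4.37 in controls, Mgl2 averaged 5.86 in knockout cells and 5.93 in controls, and Irf4 was on the other side, at 1.69 and 1.498 in knockout cells, against 1.35 and 1.24 in controls. Markers of large resident peritoneal macrophages summed to 261 to 413 on Fra-2 knockout arrays and 171 to 319 on control arrays. Sums of neutrophil markers did not overlap either and were higher in the knockout, at 31.7 on both Fra-2 knockout arrays and 15.5 to 22.0 on control arrays. Within that list only S100a9 separated the groups, at 3.09 and 0.23 in knockout cells, against −2.40 and −4.14 in controls. S100a8, Mmp8 and Elane overlapped. Mesothelium sums were 0.847 to 0.952 on Fra-2 knockout arrays and 0.738 to 0.804 on control arrays, and T cell sums 2.29 to 2.33 on Fra-2 knockout arrays and 2.39 to 2.66 on control arrays. Fibroblast markers summed to 9.64 to 9.98 on Fra-2 knockout arrays and 6.14 to 10.8 on control arrays. The part of these cells in the differences was not tested.

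The second comparison set Fra-1 knockout arrays, from mice with Mx Cre, against their controls without Cre, with the same limit. No member passed: 0 of 11 probes passed the threshold, where 0.0161% of 31143 probes did, and 0 of 11 had an unadjusted p under 0.05, against 8.63% of all probes. The median over the 12 probes was 0.02, with 6 above and 6 below 0. Among the 11 probes in the fit the difference furthest from 0 was that of Dcstamp at 0.47 (SE 0.261, 95% interval −0.17 to 1.11, adjusted p 0.677). The Calcr probe, not in the fit, gave 1.88 and was well above background on only 1 of these arrays. Ctsk gave −0.41 (95% interval −1.16 to 0.35) and Acp5 A_55_P2037608 gave −0.40 (95% interval −0.86 to 0.07). The Ctsk interval includes the −0.90 of the Fra-2 line. The Acp5 interval ends short of the −1.29 there but overlaps the interval of that value. The direct test of the difference in limma gave an adjusted p of 0.411 for this Acp5 probe. For Atp6v0d2 A_66_P124179 the difference was −0.03 (95% interval −0.57 to 0.51), and its sign turned when Fra-1 control replicate 1 was left out (0.16). Fra-1 controls were all on slide 1, where the Dcstamp difference was 0.40 and the Ctsk difference −0.28.

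**Figure D2:**
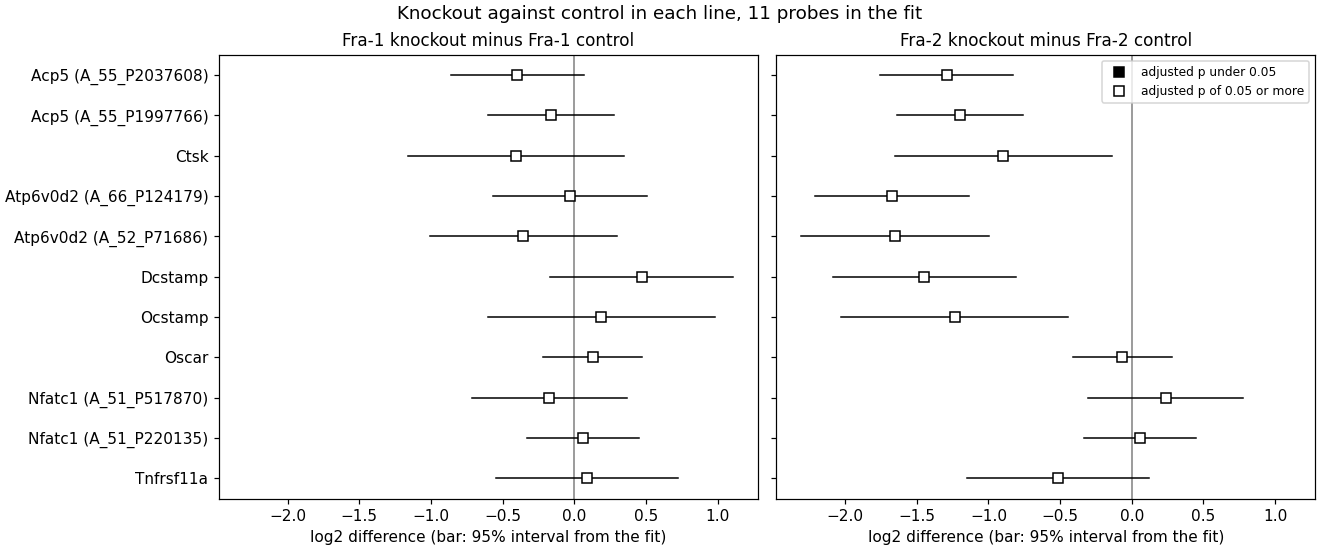
Log2 difference (horizontal axis) of knockout minus control for the 11 probes in the fit, Fra-1 left and Fra-2 right; squares are estimates, bars 95% intervals from the fit over all probes, and open squares mark an adjusted p of 0.05 or more. In the Fra-2 panel 7 intervals lie wholly below 0, from Acp5 to Ocstamp, and in the Fra-1 panel every interval spans 0.

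The Fra-1 effect minus the Fra-2 effect was tested directly. Deleted gene, Cre, line and elicitation all differ between these effects and cannot be told apart in their difference. Of the 11 probes 0 were called (0.00321% of 31137 probes were), while 6 probes of 4 genes had a positive difference at an unadjusted p under 0.05, against 5.28% of all probes. Dcstamp gave the furthest value, 1.92 (SE 0.369, 95% interval 1.02 to 2.82, adjusted p 0.244), since it was higher on both Fra-1 knockout arrays and lower on both Fra-2 knockout arrays than on their controls. Atp6v0d2 gave 1.64 on A_66_P124179 (adjusted p 0.244) and 0.96 there with normexp background correction. Its other probe, A_52_P71686, is among the 6 but has only a bound in Fra-2 knockout cells, and its fitted 1.30 became 0.32 with a common floor and −0.13 with normexp, so it gives no size. Ocstamp gave 1.42 (adjusted p 0.431), and Acp5 0.89 and 1.04 on its probes. For Ctsk the difference of effects was 0.49 (95% interval −0.58 to 1.56). An effect seen in one line and not in the other was thus not shown to differ for any of the 8 genes tested.

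For Acp5, Ctsk, Atp6v0d2 and Ocstamp the control groups of the lines lay further apart than either knockout did from its controls, while for Dcstamp and Tnfrsf11a the gaps were of like size to those of the Fra-2 knockout. In control cells, with no Cre in either genotype, Ctsk was higher in the Fra-1 line by 7.63 (SE 0.309, adjusted p 0.000141), a 198-fold difference. Atp6v0d2 was higher by 7.38 on A_66_P124179 (adjusted p 9.03e-05, 167-fold) and by 7.77 on A_52_P71686. Acp5 was higher by 2.03 and 2.04 on its probes (adjusted p 0.000912 and 0.000758), which is 4.10-fold and 4.12-fold. On slide 1 alone the difference was 8.06 for Ctsk, 7.44 for Atp6v0d2 A_66_P124179 and 2.17 for Acp5 A_55_P2037608.

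The fusion genes ran the other way. Ocstamp was lower in Fra-1 control than in Fra-2 control cells by 3.11 (SE 0.324, adjusted p 0.00128), 8.61-fold, and Dcstamp by 1.43 (SE 0.261, adjusted p 0.00904), 2.69-fold. Nfatc1 was lower by 0.88 on A_51_P220135 (adjusted p 0.00908), while A_51_P517870 gave −0.40 and was not called (adjusted p 0.213). Tnfrsf11a gave 0.44 (adjusted p 0.238) and Oscar −0.15 (adjusted p 0.445).

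Of the 11 probes 8 were called between the control groups, and 34.6% of 31139 probes were. Of these, 5 were higher in Fra-1 control cells, against 17.1% of all probes, and 3 were lower, against 17.6%. A call was thus common on these arrays, whichever gene was read. The median over the 12 probes was 0.14, and −0.04 over all probes tested.

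The knockout arrays, which share none with the control arrays, gave a second contrast of the lines. In it the deleted gene and the Cre differ as well. Both contrasts use the same estimate of a probe's spread over the 8 arrays, so their p-values are not independent. Between Fra-1 knockout and Fra-2 knockout cells 9 of 11 probes were called, where 39.9% of 31157 probes were, with 6 higher in Fra-1 knockout cells (21.2% of all) and 3 lower (18.7% of all). Ctsk was higher by 8.12 (adjusted p 8.82e-05), Atp6v0d2 A_66_P124179 by 9.02 (adjusted p 5.00e-05) and Acp5 by 2.93 and 3.08. On Atp6v0d2 A_52_P71686 the signal was 339.6-fold higher in Fra-1 knockout cells with the floor of each array. The measured means were 4.23 in Fra-1 knockout and −4.83 in Fra-2 knockout cells (adjusted p 5.87e-05). That contrast was 271-fold with a common floor and 6.42, or 85.9-fold, with normexp background correction, so its size depends on the setting. Ocstamp was lower by 1.68 (adjusted p 0.00956), and Nfatc1 by 0.81 and 0.87 on its probes (adjusted p 0.0311 and 0.00819). Tnfrsf11a was higher by 1.04 (adjusted p 0.0232), a call that did not hold without either Fra-1 knockout array (adjusted p 0.107 without replicate 1 and 0.0800 without replicate 2). Dcstamp gave 0.49 and was not called (adjusted p 0.181), and Oscar gave 0.04.

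In all, 7 probes were called in the same direction in both contrasts of the lines, 5 higher (Acp5, Ctsk and Atp6v0d2) and 2 lower (Ocstamp and Nfatc1 A_51_P220135), where 27.1% of 31137 probes were. Within slide 1 and slide 2 the knockout contrast was 8.13 and 8.11 for Ctsk and 3.19 and 2.66 for Acp5 A_55_P2037608. Ocstamp gave −1.43 and −1.93 within these slides. Leaving out Fra-1 knockout replicate 2 put Ocstamp just above the threshold (adjusted p 0.0502), and the calls of Nfatc1 were lost without single arrays as well, with adjusted p up to 0.131 on A_51_P517870 and 0.0564 on A_51_P220135.

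**Figure D3:**
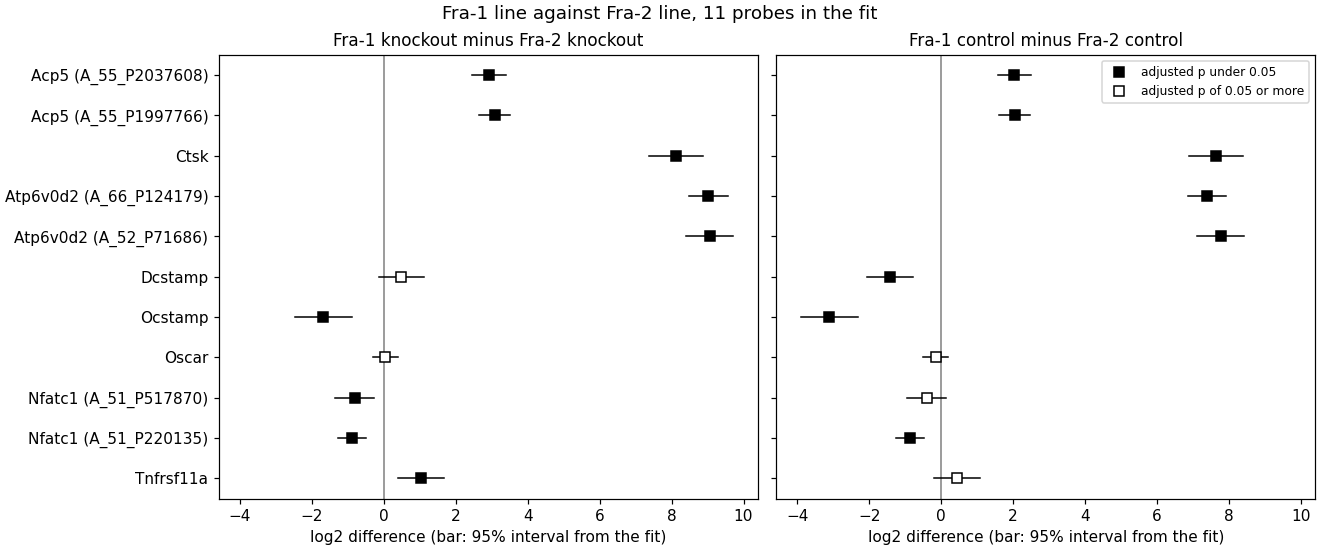
Log2 difference (horizontal axis) of the Fra-1 line minus the Fra-2 line for the 11 probes in the fit, knockouts left and controls right; squares are estimates, bars 95% intervals, filled where the adjusted p is under 0.05. Ctsk and Atp6v0d2 lie between 7.38 and 9.07, Acp5 between 2.03 and 3.08, and Ocstamp and Nfatc1 below 0 in both panels. The 9.07, of Atp6v0d2 A_52_P71686, is a fitted value whose Fra-2 knockout arrays were not well above background.

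Markers of other cells moved with the line as well. Fibroblast markers, 10 genes, summed to 103 to 156 on Fra-1 knockout and 269 to 373 on Fra-1 control arrays. They summed to 9.64 to 9.98 on Fra-2 knockout and 6.14 to 10.8 on Fra-2 control arrays. Sparc alone carried 57.4% to 59.8% of the fibroblast sum on arrays of the Fra-1 line. Pdgfra and Fbn1 were not well above background on any Fra-2 line array and were on all Fra-1 line arrays. Col1a1, Col1a2, Dcn and Sparc were well above it on all arrays of both lines. Thy1 of the same list went the other way. It averaged −0.96 in Fra-1 knockout and −0.81 in Fra-1 control cells, against 0.84 in Fra-2 knockout and 1.03 in Fra-2 control cells. The fibroblast sum was lower in Fra-1 knockout than in Fra-1 control cells without overlap, as Ctsk was. Mast cell markers summed to 1.24 to 2.52 over the 4 Fra-1 line arrays and 39.5 to 125 over the 4 Fra-2 line arrays. B cell markers summed to 0.543 to 2.67 over the Fra-1 line and 19.2 to 38.6 over the Fra-2 line, with 74.2% to 79.0% of the sum from Ms4a1. Markers of large resident peritoneal macrophages summed to 98.2 to 120 over the Fra-1 line and 171 to 413 over the Fra-2 line, and Timd4 was not well above background on any Fra-1 line array. In the Fra-1 line Cd5l carried 84.6% to 86.8% of that sum and was higher there than in the Fra-2 line, with means of 6.54 in Fra-1 knockout and 2.24 in Fra-2 knockout cells, whereas Alox15 averaged −1.43 in Fra-1 knockout and 6.58 in Fra-2 knockout cells. General macrophage markers summed to 950.2 to 1564 over the Fra-1 line and 961.6 to 1704 over the Fra-2 line, and so overlapped. The low end of each range lacks Csf1r, which had no value on Fra-1 knockout 2 and Fra-2 control 1. Single genes of this list did separate the lines. Cd68 was higher in the Fra-1 line, with means of 8.77 in Fra-1 knockout and 6.74 in Fra-2 knockout cells. Adgre1, at 6.17 in Fra-1 knockout and 7.62 in Fra-2 knockout cells, Fcgr1, Mertk and Lyz2 were lower there, and Itgam overlapped. The part of these cells in the differences of Ctsk, Atp6v0d2 and Acp5 between the lines was not tested.

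**Figure D4:**
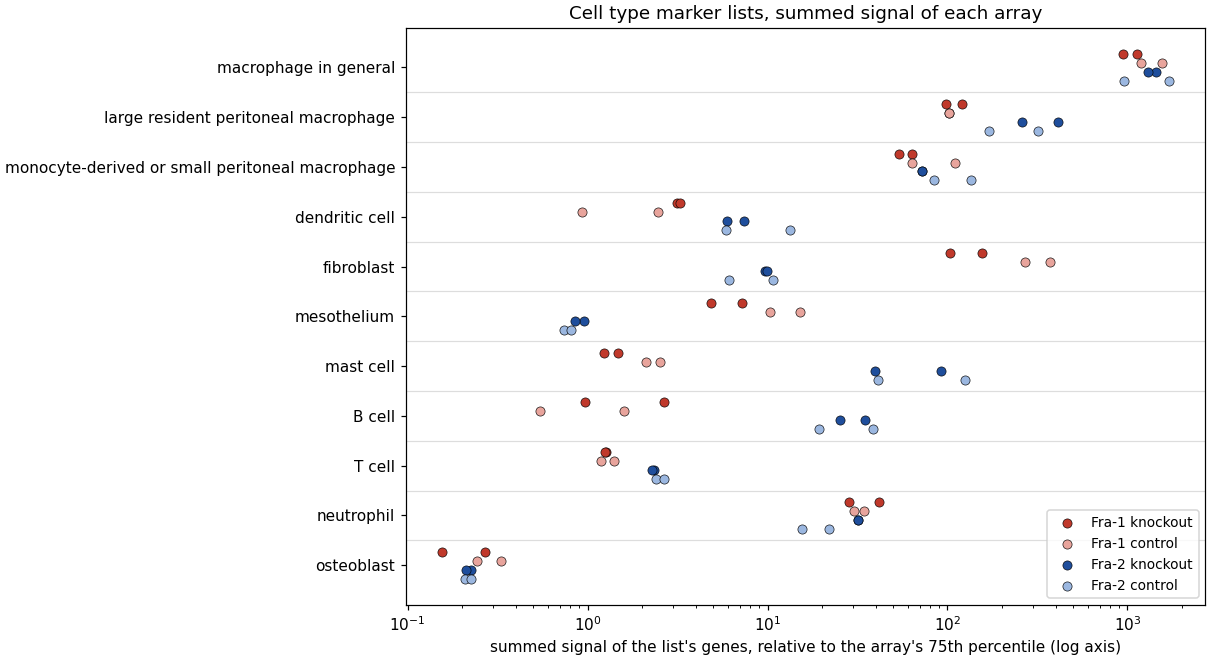
Summed signal of each marker list relative to the array's 75th percentile (horizontal log axis), 1 point per array, coloured by group. Fibroblast and mesothelium sums are higher in the Fra-1 line and mast cell, B cell and large resident macrophage sums higher in the Fra-2 line, while general macrophage sums overlap. The general macrophage sums of Fra-1 knockout 2 and Fra-2 control 1 lack Csf1r.

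The wider osteoclast pathway was read from a list of 98 other genes, of which 97 were on the array and 93 in the fit, each by its brightest probe. No gene of it passed in either knockout: 0 of 93 were called in either comparison, where 0.0138% of 14489 named genes (Fra-1) and 0.0% of 14491 (Fra-2) were, each by its brightest probe. An unadjusted p under 0.05 was held by 6 of 93 in the Fra-1 comparison, against 8.8% of all named genes, and by 16 of 93 in the Fra-2 comparison, against 9.21%. The median over the 93 was 0.00121 for Fra-1 and 0.06 for Fra-2, and over all named genes 0.02 for Fra-1 and −0.03 for Fra-2. For Fra-2 the 3 lowest p-values belonged to Id1, a dominant-negative partner of helix-loop-helix factors, with a difference of 1.17, the tetraspanin Cd9 with 0.66 and the DAP12-coupled receptor Trem2 with −1.28 (adjusted p 0.279, 0.305 and 0.349). Trem2 read 5.12 and 4.42 in Fra-2 knockout cells, against 6.35 and 5.75 in Fra-2 controls, and 1 array of the Fra-1 knockout was dropped from its fit as an outlier spot. In the Fra-1 comparison the adaptor Gab2 gave −1.05, the bone morphogenetic protein Bmp6 −1.51 and the ephrin Efnb2 −0.66 (adjusted p 0.359, 0.451 and 0.471). Bmp6 was well above background on 1 of the 4 arrays behind that value. In the difference of the effects, where 0 of 93 were called (0.0069% of 14486 named genes) and 7 had an unadjusted p under 0.05 (9.89% of named genes), the smallest p were those of Bmp6 (−2.93), Id1 (−1.66) and Cd81 (−0.90).

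Between control groups 35 of the 93 were higher in the Fra-1 line, 25 lower and 33 not called. Over all 14487 named genes 21.4% were higher and 18.5% lower. Of the genes of acid secretion and matrix digestion, 16 of 23 were higher and 3 lower, with a median of 1.04 against 0.03 over all named genes. The proton pump subunit Atp6v1c1 was higher by 2.99 (adjusted p 0.000165) and the macrophage elastase gene Mmp12 by 2.93 (adjusted p 0.00118). Mmp9, a gelatinase of osteoclasts and neutrophils, was lower by 3.03 (adjusted p 0.0184). The ubiquitous paralog of Atp6v0d2, Atp6v0d1, was higher by 0.999 (adjusted p 0.00800), and was added here after its value was seen, to set beside the 7.38 of its relative.

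The counts of the other roles are read against the same 21.4% higher and 18.5% lower. Of 11 genes of fusion and adhesion 4 were higher and 1 lower, with Itgb3, the integrin subunit of the osteoclast sealing zone, higher by 3.68 (adjusted p 0.00437). Of 18 transcription factors 3 were higher and 7 lower, and of 9 inhibitors of osteoclast formation 2 were higher and 5 lower. Of 14 signalling genes 3 were higher and 5 lower, and of 7 genes of coupling and mature markers 3 were higher and 2 lower. Of 3 ligand and decoy genes 2 were higher and 0 lower. Of 8 receptors and adaptors 2 were higher and 2 lower. With the floor of each array Siglec15, a receptor of osteoclast precursors, was 2.16-fold higher in Fra-1 control cells, a size that holds for these floors only. Its measured means were −3.48 in Fra-1 and −6.87 in Fra-2 controls (adjusted p 0.00148). Bmp6 gave −3.39 (adjusted p 0.00297) and was well above background on 1 of 2 Fra-1 control arrays.

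Between knockout groups the counts were 36 higher, 25 lower and 32 not called, against 25.9% higher and 19.8% lower of 14493 named genes. In acid secretion and matrix digestion 17 of 23 were higher and 1 lower, with a median of 1.0023 against 0.08 over all named genes. Mmp12 was higher in Fra-1 knockout cells by 4.45 (adjusted p 0.000295), Itgb3 by 4.04 and the sphingosine kinase gene Sphk1 by 3.36. Cd81 was lower by 3.12 (adjusted p 0.00015). Trem2, with a value on only 1 Fra-1 knockout array, was higher by 3.88. It was not picked by the rule, which needs values on all arrays compared. With the floor of each array Bmp6 was 24.5-fold lower (adjusted p 0.000375) and the myeloid receptor gene Clec5a 7.36-fold lower (adjusted p 0.00206). These sizes hold for those floors only. The measured means of Bmp6 and Clec5a were −6.18 and −5.22 in Fra-1 knockout cells, against 0.14 and −1.59 in Fra-2 knockout cells.

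Genes whose values ran most like each member were found by the root mean square log2 difference over the 8 arrays after centring, among 11876 genes well above background on all arrays. Since the 8 arrays fall into the lines, this likeness mostly reads the line contrast and is given as a description. Ctsk and Atp6v0d2 A_66_P124179 had the same nearest genes, Stra6l and the osteopontin gene Spp1, at 0.62 and 0.63 from Ctsk and 0.72 and 0.71 from Atp6v0d2. Spp1 read 7.28 and 7.15 in Fra-1 knockout cells, against 6.60 and 6.73 in Fra-1 controls, and −1.35 and −0.34 in Fra-2 knockout cells, against −0.02 and −0.55 in Fra-2 controls. It shared the gap between the lines but not the separation of the Fra-2 groups.

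Dcstamp had the chemokine gene Ccl9 as its nearest gene, at 0.15. Ccl9 read 6.05 and 6.07 in Fra-1 knockout cells, against 5.29 and 6.06 in Fra-1 controls, and 5.20 and 5.97 in Fra-2 knockout cells, against 7.06 and 7.35 in Fra-2 controls. The Fra-2 control arrays were the high ones, as for Dcstamp, but the Fra-1 knockout arrays of Ccl9 overlapped their controls. The nearest gene of Acp5 was the tetraspanin gene Cd63 (0.25) for A_55_P2037608 and Lat2 (0.21) for A_55_P1997766. Cd63 read 6.16 and 6.33 in Fra-2 knockout cells, against 7.73 and 7.48 in Fra-2 controls. Ocstamp lay nearest to Aldh1l1 (0.26) and Fxyd2 (0.33), and Tnfrsf11a to Crlf2 and Metap1d (0.13 each). The Nfatc1 probes had Sgpp1 (0.07) and Fbxl4 (0.06) as nearest genes.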

How the data were processed

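Labelled cRNA from 50 ng of total RNA was hybridized to Agilent arrays of design 028005 and read in Cy3, and the scans were extracted by the authors with Feature Extraction 11.5.1.1, per the file headers. The deposited processed signals are intensities on a linear scale after background subtraction, per the file headers, with 0 or 1 flags for signal well above background, saturation and outlier spots. The deposited series matrix holds log2 values. Against the scanner values its columns correlated at 0.99999 or more after centring each probe, with slopes near 1, so it is read as scaled to the 75th percentile and centred on each probe's median. Its column medians ran from −0.15 to 0.25.

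Control spots and outlier spots (191 to 317 per array) were left out, spots of a probe were averaged, and log2 signal minus the array's 75th percentile (315 to 470 before log2) was used. A probe entered the fit when well above background on both arrays of at least 1 group (31159 probes). Probes were named by accession through RefSeq's table of GRCm38.p6 (28026 named), while the headers give mm9. Group means over the 8 arrays were estimated with limma 3.58.1 (R 4.3.3), with residual degrees of freedom 4 and prior 2.04. Benjamini-Hochberg adjustment ran over all probes of a comparison, and the fit was tested on simulated data. Where a group was not well above background, the bound takes for each of its arrays the higher of the probe's own signal and the lowest signal well above background there (−3.85 on Fra-2 knockout 1, −4.45 to −4.98 on the others). Such bounds hold for these floors only, and other background settings gave smaller folds for Atp6v0d2 A_52_P71686. Slide 1 held Fra-1 knockout 1, both Fra-1 controls, Fra-2 knockout 1 and Fra-2 control 1, and slide 2 the other 3 arrays. Groups come from the genotype labels, and replicate numbers only name arrays, since the labels share no numbers between groups. The number of arrays limits precision.

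The members, the lists of pathway and marker genes and the motifs were chosen with earlier results of these data known. All member probes are named. From the pathway list the rule takes up to 6 called genes per comparison with the largest differences and no overlap, or, with under 3 called, the 3 of lowest p. The 2 nearest genes are taken for each member probe that was above background on all arrays with a range of at least 1. Alternatives were quantile normalization, normexp with an offset of 50 on median signals, the brightest probe per gene, the series matrix, a filter on all 8 arrays, no filter, slide as a block, only the groups compared, a prior that follows signal level, a common floor and leaving out each array. Figures were drawn with matplotlib 3.10.9, and tables made with pandas 2.3.3 and numpy 2.4.6 under Python 3.11.15.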

Additional observations from a re-analysis of the deposited data

Results flagged for a closer look

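Dcstamp stood out because its knockout arrays lay on opposite sides of their controls. Both Fra-1 knockout arrays read above both of their controls, and both Fra-2 knockout arrays below both of theirs. The Fra-1 difference alone was 0.47 (95% interval −0.17 to 1.11, adjusted p 0.677 in limma), an interval that includes 0. For Fra-2 it was −1.45 (adjusted p 0.191 in limma). The Fra-1 effect minus the Fra-2 effect was 1.92 on the log2 scale (95% interval 1.02 to 2.82), and limma's test of that difference gave an adjusted p of 0.244, which is not past the threshold. Over the 17 alternatives the value ran from 1.68 to 2.16 and the adjusted p from 0.140 to 0.540. Within slide 1 alone it was 1.83. No other member probe had all arrays of the lines on opposite sides. The share of all probes that did so is not given here. Separation by itself was common: in the Fra-2 comparison 20.0% of all probes lay lower in the knockout without overlap.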

How the results depend on the processing

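Of 783 alternative values of single member probes, 750 kept their direction and side of the threshold. The 17 called probe values kept their direction in all 230 alternatives run and their call in 220. Both contrasts of the lines kept their calls of Acp5, Ctsk and Atp6v0d2 in every alternative run. The 10 lost calls all fell in the knockout contrast, on Nfatc1, Tnfrsf11a and Ocstamp, 7 of them by leaving out 1 array, which leaves a lone sample assumed to vary like the other groups, 2 with no filter and 1 with only the groups compared. A prior that follows signal level called 3 member probes in the Fra-2 comparison in place of 0. With the brightest probe per gene 5 were called between controls in place of 8, from fewer probes. The cause of the other changes was not tested.

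Most values that changed sign were near 0, except that of Atp6v0d2 A_52_P71686 in the difference of effects, 1.30 in the fit. In the Fra-1 comparison Atp6v0d2 A_66_P124179 gave 0.0543 and Ocstamp −0.0106 with slide as a block, and Nfatc1 A_51_P220135 gave −0.00931 with normexp. Leaving out 1 array there gave −0.22 to 0.16 for that Atp6v0d2 probe, −0.10 to 0.48 for Ocstamp, −0.0266 to 0.28 for Oscar, −0.36 to 0.0098 for Nfatc1 A_51_P517870 and −0.0623 to 0.19 for Nfatc1 A_51_P220135. In the Fra-2 comparison Oscar gave 0.0615 with normexp, and Nfatc1 A_51_P220135 −0.0762 to 0.19 when 1 array was left out. In the difference of effects normexp gave −0.13 for Atp6v0d2 A_52_P71686 and −0.0181 for Nfatc1 A_51_P220135, which ran from −0.13 to 0.14 without 1 array. Oscar gave −0.31 to 0.0042 between controls without 1 array, and −0.0164 between knockouts with normexp.

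The median over member probes moved to −0.63 with normexp, −0.90 with the brightest probe per gene, −0.78 with a common floor and −1.35 to −0.73 without 1 array in the Fra-2 comparison, each still below 0. In the difference of effects it was 0.44 with normexp, 0.75 with the filter on all 8 arrays, 0.86 with slide as a block, 0.55 with a common floor and 0.69 to 1.12 without 1 array. The brightest probe per gene gave medians of 0.0864 in the Fra-1 comparison, −0.15 between controls and 0.49 between knockouts, and slide as a block 0.0548 between controls.

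Counts over all probes were unstable in the knockout comparisons. For Fra-1 the 5 calls became 31 with quantile normalization, 15 with a common floor, 3 with the brightest probe per gene, 1 with the filter on all 8 arrays, 0 with normexp, no filter, slide as a block, only the groups compared or the signal prior, and 2 to 4 without 1 array. For Fra-2 the 1 call became 26 with quantile normalization, 14 with normexp, 10 with the filter on all 8 arrays, 77 with the signal prior, 5 with a common floor, 0 with the series matrix, no filter, the brightest probe per gene, slide as a block or only the groups compared, and 1 to 80 without 1 array, 80 without Fra-2 knockout replicate 2. In the difference of effects the 1 call became 15 with quantile normalization, 2 with a common floor, 0 with normexp, no filter, slide as a block or the signal prior, and 0 to 37 without 1 array. Without 1 array 7038 to 7494 probes were called between controls in place of 10778, and 7013 to 10496 between knockouts in place of 12442.

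No paired analysis was possible because the labels share no replicate numbers between groups. Signals near background limit Calcr and the dim Atp6v0d2 probe, most on Fra-2 knockout replicate 1, where the lowest signal well above background was highest (−3.85).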
